A study of Homo sapiens with 4 samples.

Results

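H3K4me3 was examined at 7 genes that encode luminal lineage transcription factors of the mammary epithelium: FOXA1, GATA3, SPDEF, ELF3, GRHL2, TFAP2A and TFAP2C. The mark is the trimethyl form of lysine 4 on histone H3, which marks active promoters and which KDM5 demethylases remove. The members were the peaks that the annotated table names for 1 of these genes and places within 20000 bases of its transcription start, and 31 of the 110018 merged peaks met this rule. They are 5 core peaks at most 500 bases from a start, 8 shoulder peaks beyond 500 and up to 2000 bases away, and 18 outer peaks beyond 2000 bases. The signal came from CUT&Tag, in which an antibody directs a transposase to the mark so that the DNA beside it is cut and sequenced. The cells were HCC1428, an established human breast adenocarcinoma line whose genotype is labelled WT, so that a single line stands for luminal tumours here. Both groups were collected on day 5, 2 libraries after the vehicle DMSO and 2 after 2.5 µM C48, a KDM5 inhibitor. The labels name the libraries biological replicates without saying whether the cultures were separate, and the p-values cover no more than the spread between these libraries, which may be technical.

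FOXA1 is a forkhead protein that opens chromatin for other factors, and GATA3 is a zinc finger protein needed for luminal differentiation. Both act with the estrogen receptor in breast cells. SPDEF and ELF3 belong to the epithelial ETS family, GRHL2 is a grainyhead factor that maintains epithelial junction genes, and TFAP2A and TFAP2C are the AP-2 factors of breast epithelium. At most active genes H3K4me3 sits in a core around the start and thins out over the flanks, here called shoulders.

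The sequences of 5 peaks show the range of base composition at these loci. They are taken from hg38, the build of the peak table, on the strand of the gene, with every CpG in capitals. CpG is the dinucleotide that dense promoter islands keep and most other DNA has lost, and its observed over expected ratio compares its number with what the C and G content of the peak would give. The first sequence lies in the FOXA1 core peak (chr14:37594582-37594881, minus strand), where H3K4me3 fell most among the core peaks of the 7 genes, and holds 31 CpG in 300 bases. The second lies in the TFAP2C shoulder peak (chr20:56630558-56630857, plus strand), where the mark also fell, and holds 35. The ELF3 shoulder peak (chr1:202012104-202012403, plus strand) and the TFAP2A peak between the starts of that gene (chr6:10416838-10417049, minus strand) are places where the mark rose, and they hold 4 CpG in 300 bases and 8 in 212. The last, beyond the end of SPDEF (chr6:34536499-34536798, minus strand), had the largest rise of all tested peaks of the 7 genes and holds 1.
FOXA1 core: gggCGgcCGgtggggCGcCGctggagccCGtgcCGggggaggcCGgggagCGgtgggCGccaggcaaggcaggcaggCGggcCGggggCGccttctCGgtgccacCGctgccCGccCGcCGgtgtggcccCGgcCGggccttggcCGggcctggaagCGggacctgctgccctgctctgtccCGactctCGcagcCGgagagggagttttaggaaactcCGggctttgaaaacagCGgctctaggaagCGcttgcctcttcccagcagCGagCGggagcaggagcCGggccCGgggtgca
TFAP2C shoulder: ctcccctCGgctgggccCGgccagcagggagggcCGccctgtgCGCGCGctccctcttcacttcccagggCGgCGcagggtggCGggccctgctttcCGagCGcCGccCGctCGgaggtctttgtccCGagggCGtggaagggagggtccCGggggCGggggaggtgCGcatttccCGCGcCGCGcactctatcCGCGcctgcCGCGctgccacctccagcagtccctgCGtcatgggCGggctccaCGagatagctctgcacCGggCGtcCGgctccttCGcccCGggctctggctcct
ELF3 shoulder: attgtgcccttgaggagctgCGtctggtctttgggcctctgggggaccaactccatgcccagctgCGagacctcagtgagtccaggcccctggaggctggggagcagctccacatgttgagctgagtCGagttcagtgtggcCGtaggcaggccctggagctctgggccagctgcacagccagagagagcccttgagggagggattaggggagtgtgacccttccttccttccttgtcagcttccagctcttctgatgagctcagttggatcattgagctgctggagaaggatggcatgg
TFAP2A between starts: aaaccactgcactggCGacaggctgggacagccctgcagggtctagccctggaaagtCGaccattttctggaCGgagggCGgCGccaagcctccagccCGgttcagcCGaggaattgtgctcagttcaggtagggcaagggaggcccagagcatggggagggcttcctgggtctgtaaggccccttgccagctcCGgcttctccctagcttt
SPDEF beyond the gene end: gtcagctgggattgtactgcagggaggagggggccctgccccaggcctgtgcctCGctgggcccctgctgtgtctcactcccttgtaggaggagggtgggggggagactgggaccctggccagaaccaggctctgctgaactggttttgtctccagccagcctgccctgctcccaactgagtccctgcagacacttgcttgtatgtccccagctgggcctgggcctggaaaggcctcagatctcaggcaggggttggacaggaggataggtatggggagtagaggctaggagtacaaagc

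Depth was 58.4 to 88.4 M tags per library, the 64.6 M of the second DMSO library lying between the 58.4 and 72.7 M of the C48 pair, and 64.0% to 66.3% of tags were in peaks. Values below are tags per 10 M aligned tags after TMM scaling, in which the bulk of peaks is set level between libraries, and a log2 change is C48 minus DMSO on log2(value + 1) from limma-trend. Every direction is therefore relative to that bulk, and a shift of the mark over the whole genome cannot be seen. The paper reports a global rise of H3K4me3 after C48, with fewer spike-in reads in those libraries, and scaled to the spike-in for that reason. Such a scaling would raise the log2 changes given here. With 2 libraries against 2 an exact permutation test cannot give a p below 0.333, so the small p-values rest on a spread that limma shares over the peaks or genes of a fit. Markers fixed for the luminal type were present in these cells: 7 of 7 had a core sum of at least 5, among them KRT8 at 1280 and 1261 in DMSO. Of 8 basal markers 3 reached that level, ZEB1 at 1091 and 1114, SNAI2 at 121 and 119 and VIM at 107 and 102 in DMSO. The basal markers KRT5, KRT14, KRT17, TP63 and SOX10 lay below it, and none of the 5 blood markers had a core peak. As 13506 genes reached a core sum of 5, reaching it does not by itself tell a cell type.

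The first comparison asked whether C48 changed H3K4me3 in the core of these promoters. Of the 5 genes with a core peak, 4 were lower and 1 was higher after C48. FOXA1 held 826 and 798 tags with DMSO and 369 and 405 with C48, a log2 change of -1.07 (SE 0.046, adjusted p = 2.22e-114), so that 0.477 of the DMSO level was left on the TMM scale. This peak (chr14:37594491-37595211) lies within the gene, just after the start that the annotated table uses, and overlaps coding sequence. TFAP2C held 1495 and 1516 tags with DMSO and 824 and 894 with C48, a log2 change of -0.81 (SE 0.037, adjusted p = 3.74e-105). Its peak lies at chr20:56629057-56629850, over the start. For both genes the libraries of the groups lay far apart.

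GRHL2 held 1165 and 1169 tags with DMSO and 871 and 974 with C48 in its core peak (chr8:101491834-101492656), a log2 change of -0.34 (SE 0.038, adjusted p = 5.50e-19). ELF3 held 885 and 924 tags with DMSO and 798 and 819 with C48 (chr1:202010416-202011349), a log2 change of -0.16 (SE 0.040, adjusted p = 8.84e-05). These falls are small beside the core change of FOXA1, and each was lost or turned under other scalings. GRHL2 gave -0.0085 (adjusted p = 0.838) and ELF3 gave 0.17 when the deposited values per 10 M tags were used as they stand. SPDEF was the exception, with 221 and 214 tags in DMSO and 254 and 257 in C48 (chr6:34555794-34556249, 5' untranslated region), a log2 change of 0.23 (SE 0.066, adjusted p = 0.000596). GATA3 and TFAP2A have no peak under their own names within 500 bases of a start that the annotated table uses, and for both genes GENCODE places the upstream start elsewhere.

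These counts have to be read against the genome. Of 13506 genes tested by core sum, 67.1% were called lower and 16.7% higher, with a median log2 change of -0.41, so a fall of a core peak was the common case. As a description, the core change of FOXA1 stood at percentile 2.83 of all genes, against 14.4 for TFAP2C, 55.7 for GRHL2, 67.6 for ELF3 and 83.4 for SPDEF. Medians were lower for strong promoters: among genes with a mean core sum of 500 to 1000 the median change was -0.63 and among those of 1000 to 2000 it was -0.71. FOXA1 with a mean of 599.5 and TFAP2C with a mean of 1182 lay below these medians, while ELF3 at 857 and GRHL2 at 1045 lay above them. SPDEF, at 236, lay above the median of -0.51 for genes of 200 to 500.

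Divided by the width of the peak, the core levels in DMSO ran from TFAP2C with 1896 tags per kb over GRHL2 with 1418, FOXA1 with 1126 and ELF3 with 969 to SPDEF with 477. Neighbours in this order did not overlap between libraries. In C48 the order was GRHL2 with 1121, TFAP2C with 1082, ELF3 with 866, SPDEF with 560 and FOXA1 with 537, and the libraries of GRHL2 and TFAP2C overlapped. FOXA1 thus went from the middle of the group to its lower end, where its libraries at 512 and 562 per kb overlapped those of SPDEF at 557 and 563.

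**Figure D1:**
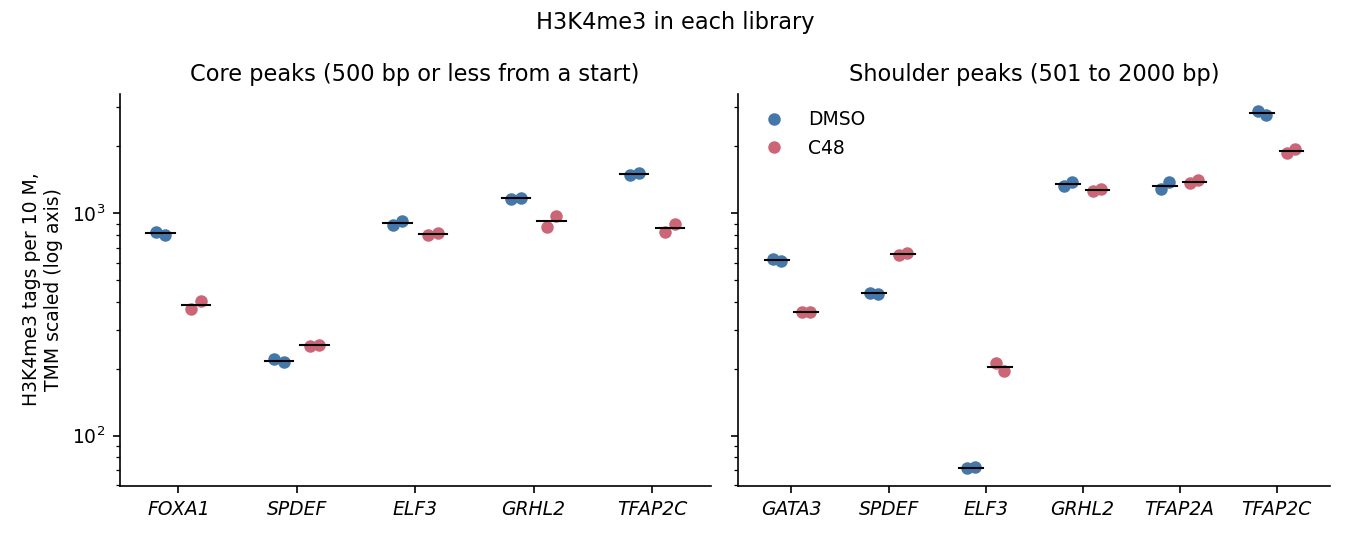
TMM-scaled H3K4me3 tags per 10 M (vertical, log axis) in each library for the summed core peaks (left) and shoulder peaks (right) of each gene, with dots for libraries and bars for the mean of 2. FOXA1 drops from about 812 to 387 in the core, and ELF3 rises from 71.7 to 204 in the shoulder.

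The next comparison asked the same of the shoulders. Here the 6 genes with a shoulder peak divided: ELF3 and SPDEF were higher after C48, GATA3, TFAP2C and GRHL2 were lower, and the TFAP2A sum was not called. Over the genome 48.5% of 6770 shoulder sums were called higher and 28.5% lower, with a median of 0.22. ELF3 held 71.6 and 71.9 tags with DMSO and 213 and 196 with C48, a log2 change of 1.50 (SE 0.085, adjusted p = 5.85e-24). This peak (chr1:202012081-202012426) is annotated as intron and overlaps a coding exon of the gene. SPDEF held 439 and 433 tags with DMSO and 647 and 664 with C48 in a peak in an intron (chr6:34554578-34555743), a log2 change of 0.59 (SE 0.047, adjusted p = 2.40e-17). Both genes were higher under each of the 5 scalings tried.

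GATA3 held 625 and 610 tags with DMSO and 360 and 358 with C48, a log2 change of -0.78 (SE 0.049, adjusted p = 8.25e-22). The peak (chr10:8055596-8056072) overlaps a coding exon 1146 bases after a start. TFAP2C held 2879 and 2785 tags with DMSO and 1877 and 1946 with C48 (chr20:56629985-56631055), a log2 change of -0.57 (SE 0.029, adjusted p = 1.77e-26). Both remained below DMSO under 4 of the 5 scalings, the exception being scaling on ribosomal protein promoters, with 0.0087 for GATA3 and 0.22 for TFAP2C. GRHL2 held 1333 and 1379 tags with DMSO and 1262 and 1285 with C48 (chr8:101493729-101494386), a log2 change of -0.09 (SE 0.034, adjusted p = 0.0151). This small fall did not hold: it turned to 0.24 per 10 M tags, and it lost its call without C48 replicate 1 (-0.046, adjusted p = 0.299), without C48 replicate 2 (-0.074, adjusted p = 0.0822) and in the DESeq2 test (adjusted p = 0.0730).

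The TFAP2A sum of 1283 and 1380 tags with DMSO against 1373 and 1407 with C48 (log2 change 0.06, SE 0.035, adjusted p = 0.0979) is made of 3 peaks that differ. The table measures them from 2 starts of this gene. The upstream one, at chr6 position 10420060, lies outside the gene as GENCODE draws it (chr6:10393186-10419659, minus strand). The peak 730 bases after it is therefore closer to the GENCODE start than that distance says, and its class as shoulder depends on the start used. A peak 1869 bases before the downstream start, and 3117 bases after the upstream start, held 133 and 144 tags with DMSO and 315 and 321 with C48, a log2 change of 1.20 (SE 0.068, adjusted p = 7.76e-24). The peak 730 bases after the upstream start (chr6:10419039-10419622) held 620 and 658 tags with DMSO and 613 and 652 with C48, and the groups overlapped. The peak 898 bases after the downstream start (chr6:10414005-10414347) was lower, with 530 and 579 tags against 445 and 434, a log2 change of -0.33 (SE 0.050, adjusted p = 2.72e-08). With the values per 10 M tags that fall was gone (-0.0012, adjusted p = 0.983), while the rise between the starts held under each of the 5 scalings. The sum itself was called higher without DMSO replicate 2 (0.099, adjusted p = 0.0132), without C48 replicate 1 (0.11, adjusted p = 0.00769) and per 10 M tags (0.39, adjusted p = 4.83e-19). It was also higher with the core drawn out to 1000 bases, which leaves the peak between the starts alone in the shoulder (1.20, adjusted p = 1.90e-17).

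Per kb of peak, shoulder levels in DMSO ran from TFAP2C with 2644 and GRHL2 with 2061 over GATA3 with 1294 and TFAP2A with 1169 to SPDEF with 374 and ELF3 with 207. After C48 ELF3 reached 590 and SPDEF 562, and GATA3 fell to 753. The libraries of ELF3, 616 and 565, and of SPDEF, 555 and 569, then overlapped.

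Whether core and shoulder changed by different amounts was tested within each gene, as the log2 ratio of shoulder to core per library, in which the scaling of a library cancels. The ratio was higher after C48 in each of the 4 genes that have both kinds of peak. Over 5295 genes 75.9% were called higher, with a median change of 0.71, so this direction was also the common one. ELF3 went from -3.61 and -3.67 to -1.90 and -2.06, a change of 1.66 (SE 0.078, adjusted p = 4.86e-14). SPDEF went from 0.99 and 1.02 to 1.35 and 1.37, a change of 0.36 (SE 0.070, adjusted p = 8.25e-05). GRHL2 changed by 0.25 (SE 0.048, adjusted p = 5.98e-05) and TFAP2C by 0.24 (SE 0.041, adjusted p = 1.16e-05). The latter 3 lay at percentiles 27.0, 22.3 and 22.0 of all genes, and ELF3 at 88.4. For TFAP2C both parts had fallen, the core by more, while for SPDEF both had risen, the shoulder by more.

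**Figure D2:**
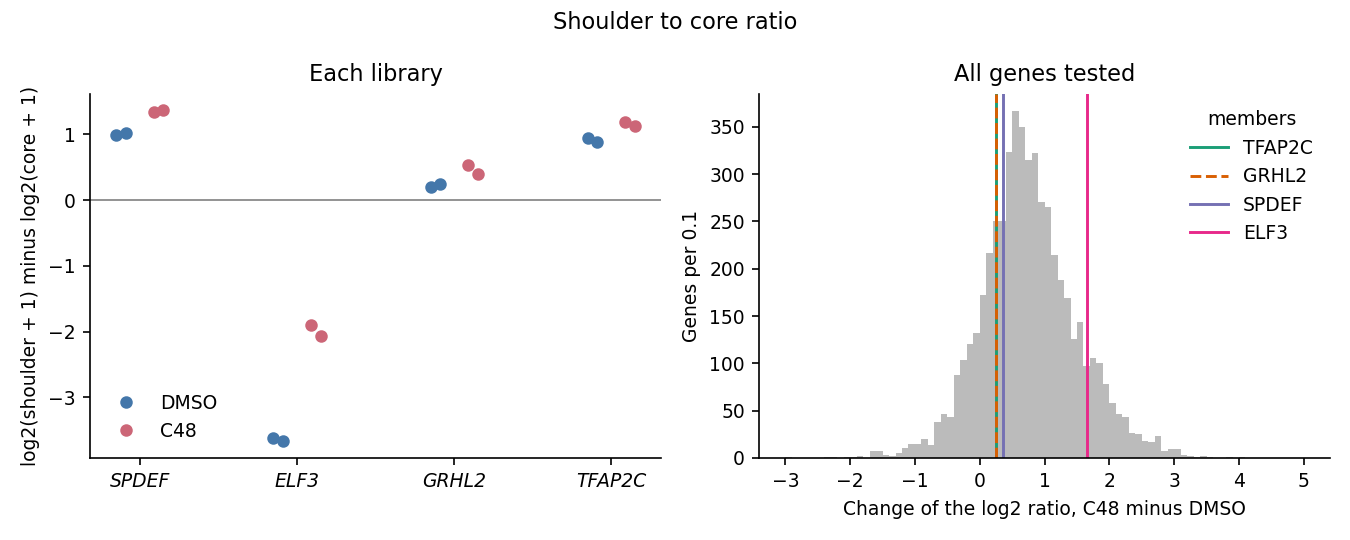
Left, the log2 ratio of shoulder to core in each library (dots) for the 4 genes with both kinds of peak. Right, the change of that ratio over 5295 genes (grey, genes per bin of 0.1) with the 4 genes as lines. ELF3 at 1.66 lies to the right of the median of 0.71, the other members between 0.24 and 0.36 lie to its left.

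FOXA1 has no shoulder peak under its name, but 3 outer ones. The peak 3696 bases after the start, over coding sequence (chr14:37591415-37591691), held 286 and 294 tags with DMSO and 294 and 311 with C48, a log2 change of 0.06 (SE 0.059, adjusted p = 0.365). It was not called, whereas the core peak of the same gene fell by 1.07 on the log2 scale. With the shoulder drawn out to 5000 bases, an alternative that brings this peak in, the ratio to the core rose by a log2 of 1.13. Of the peaks beyond the gene end, the one 4858 bases past it rose from 13.2 and 12.7 tags to 25.8 and 33.8 (log2 change 1.13, SE 0.19, adjusted p = 4.94e-07), and a stronger one 5481 bases past it fell from 249 and 232 to 172 and 190 (log2 change -0.40, SE 0.069, adjusted p = 3.41e-07). That fall was not called per 10 M tags (-0.07, adjusted p = 0.327).

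Outer sums were higher after C48 in 4 of the 6 genes where they could be tested, lower in 0 and not called in 2. The background was 42.1% higher and 18.5% lower of 4936 genes. No member had a lower outer sum at an unadjusted p under 0.05 with limma, and the edgeR and DESeq2 tests on recovered read pairs called 0 lower as well. The SPDEF sum went from 49.8 and 55.5 tags to 175 and 188, a log2 change of 1.77 (SE 0.097, adjusted p = 1.95e-47). Most of it came from the peak 920 bases beyond the gene end (chr6:34536415-34536882), which rose from 25.0 and 24.2 tags to 152 and 163, a log2 change of 2.63 (SE 0.12, adjusted p = 4.09e-34). The 4 other outer peaks of SPDEF held at most 15.9 tags in any library. One of them, 11154 bases into the gene, was lower, from 12.5 and 12.9 to 7.29 and 8.26 (adjusted p = 0.0219), and it lost its call without DMSO replicate 2 (adjusted p = 0.0507), without C48 replicate 1 (adjusted p = 0.144) and without C48 replicate 2 (adjusted p = 0.0577).

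GRHL2 had a run of 4 weak intronic peaks between 9011 and 13019 bases after the start, each of which rose. The pair with the smallest p, at 12164 and 13019 bases, went from 24.2 and 27.5 tags to 48.5 and 50.7 (log2 change 0.92, SE 0.15, adjusted p = 9.55e-08) and from 22.7 and 24.4 to 46.6 and 47.7 (log2 change 0.97, SE 0.15, adjusted p = 4.02e-08). The peak at 9011 bases was not called by the DESeq2 test (adjusted p = 0.0526). The peak 18151 bases before the start held 22.2 and 31.2 tags with DMSO and 21.0 and 22.4 with C48, with overlapping groups, and became lower by the test without DMSO replicate 1 (-0.51, adjusted p = 0.0216). ELF3 rose 1030 bases beyond its end, from 122 and 141 tags to 182 and 192 (log2 change 0.51, SE 0.079, adjusted p = 2.87e-08). Its other outer peak, 18330 bases from the start, held no tag in any library, which by counting error alone allows up to 3 tags, a deposited value of 0.339 to 0.514 depending on the library. TFAP2A rose 6448 bases before its upstream start, from 42.4 and 37.3 tags to 69.9 and 74.3 (log2 change 0.84, SE 0.12, adjusted p = 7.51e-09). TFAP2C at 2288 bases held 779 and 827 tags with DMSO and 864 and 830 with C48, not called (log2 change 0.08, adjusted p = 0.0871), although it was called higher without DMSO replicate 2 (0.10, adjusted p = 0.0447) and without C48 replicate 2 (0.13, adjusted p = 0.00427).

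**Figure D3:**
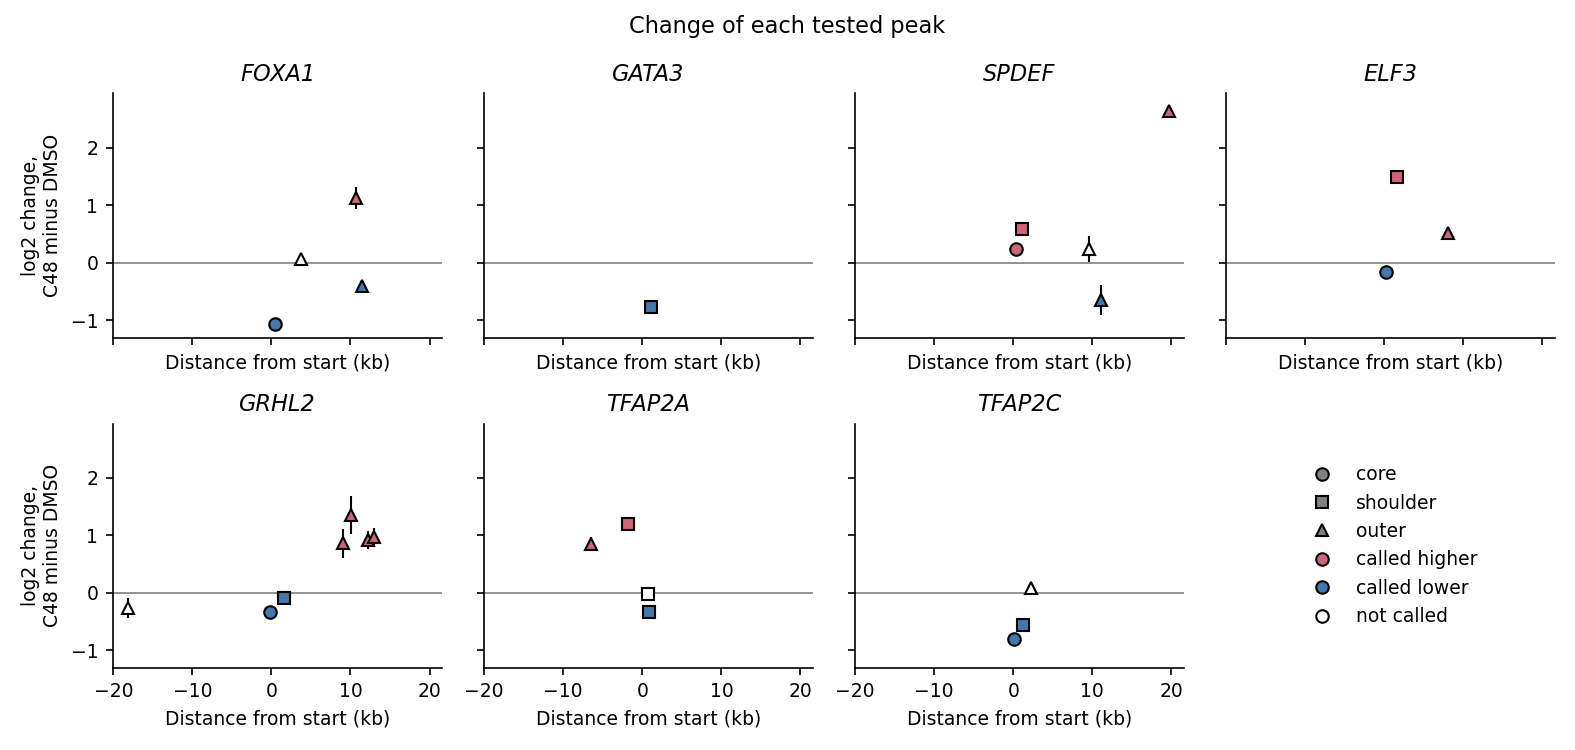
Log2 change of each tested peak (vertical, bars are SE) against its signed distance from the start in kb, negative before the start, with 1 panel per gene. Core and near shoulder peaks lie below 0 for FOXA1, GATA3, GRHL2 and TFAP2C, as do the ELF3 core peak and the TFAP2A peaks at 730 (not called) and 898 bases. In all, 8 outer peaks were called higher, up to 2.63 beyond the end of SPDEF.

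Counted peak by peak, 7 of the 18 peaks that at least 1 of the 4 libraries had called were higher and 8 were lower, against 36.0% and 36.9% of 33819 such peaks in the genome. The other 13 member peaks were called in none of the 4 libraries, although the table gives the shoulder peak of GATA3, for one, 625 and 610 tags in DMSO. Of these, 9 passed the minimum mean of 5 and were tested among all merged peaks, where 5 were higher and 2 lower, against 37.0% and 34.5% of 43322. By class, the median log2 change was -0.34 for 5 core, -0.053 for 8 shoulder and 0.67 for 14 outer peaks. The 4 peaks below the minimum held at most 2.44 tags in any library.

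A further sum took all peaks named for a gene within 20000 bases of a start, and no peaks named for other genes. FOXA1, GATA3, TFAP2C and GRHL2 were lower and SPDEF, ELF3 and TFAP2A higher, against 56.8% lower and 23.8% higher of 17005 genes. SPDEF rose from 710 and 703 tags to 1076 and 1108 (log2 change 0.63, SE 0.040, adjusted p = 6.76e-30). GATA3 fell from 625 and 610 to 360 and 358 (log2 change -0.78, SE 0.049, adjusted p = 2.41e-30). This is the fall of its shoulder peak over again, as its outer peak held at most 0.866 tags in any library. The peaks named for GATA3-AS1 in that span, described below, are not in this sum. The log2 changes of FOXA1 (-0.59), TFAP2C (-0.51) and GRHL2 (-0.16) were also called, that of GRHL2 turning to 0.17 per 10 M tags. The rises of ELF3 (0.12, adjusted p = 0.00310) and TFAP2A (0.09, adjusted p = 0.0128) were small, and both were lost without DMSO replicate 1 (adjusted p = 0.138 and 0.425) and with DESeq2 size factors (adjusted p = 0.258 and 0.549).

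The table measures GATA3 from a start at chr10 position 8054688, which lies inside the gene as GENCODE draws it (chr10:8045378-8075198). The peaks before that start carry the name of the divergent GATA3-AS1, an antisense RNA gene, and so are not members, although some lie within GATA3. The nearest, 818 bases before the start used (chr10:8053625-8054115), is within the gene and fell from 466 and 469 tags to 292 and 306 (log2 change -0.64, SE 0.054, adjusted p = 1.67e-16). Another (chr10:8045166-8045630), 9290 bases before the start used, spans the upstream start of GATA3 in GENCODE and rose from 230 and 243 tags to 295 and 290 (log2 change 0.30, SE 0.062, adjusted p = 1.29e-05). A peak 17258 bases before the start used lies outside the gene and rose from 29.4 and 26.1 to 59.2 and 49.8 (log2 change 0.95, SE 0.14, adjusted p = 1.91e-08). At FOXA1 a peak named for TTC6, 4621 bases before the FOXA1 start used, rose from 41.4 and 42.8 tags to 64.1 and 57.1 (log2 change 0.51, SE 0.12, adjusted p = 0.000248).

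The base composition of the core and shoulder peaks went with the direction of change, a relation that was examined after the values were seen. In the core, CpG observed over expected was 0.135 for SPDEF, 0.293 for ELF3, 0.670 for GRHL2, 0.882 for TFAP2C and 0.895 for FOXA1, and the log2 changes, 0.23, -0.16, -0.34, -0.81 and -1.07, followed the reverse order without exception. Among the 8 shoulder peaks the 3 that rose had ratios of 0.158 at ELF3, 0.241 at SPDEF and 0.385 at the TFAP2A peak between the starts. The 5 that did not rise had ratios of 0.654 to 0.871, the highest being GATA3. This is a description of 13 peaks that share 4 libraries and 7 genes. Their rank correlation of ratio and log2 change was -0.86, while over the 14 tested outer peaks of these genes it was only -0.27.

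The same slope was present in core and shoulder peaks across the genome. Over all tested outer peaks it was hardly seen, but it was present in outer peaks of 200 to 2000 tags. The median log2 change of core peaks was 0.84 over 306 peaks with a ratio under 0.25, 0.34 from 0.25 to 0.5, -0.26 from 0.5 to 0.75, -0.52 from 0.75 to 1 and -0.75 above 1. Shoulder medians ran from 1.09 under 0.25 to -0.34 above 1. Outer medians were 0.27 under 0.25, 0.47 from 0.25 to 0.5 and 0.071 above 1, with a rank correlation of -0.10 over 6417 outer peaks. Over the 390 outer peaks of 200 to 2000 tags it was -0.32, against -0.36 in core peaks of that strength. Medians of these outer peaks ran from 0.24 over 43 peaks with a ratio of 0.25 to 0.5 to -0.28 over 153 from 0.75 to 1. Core peaks rich in CpG were also stronger, with a median level of 21.7 tags under 0.25 and of 247 from 0.75 to 1. Within core peaks of 200 to 2000 tags the medians still ran from 0.23 over only 11 peaks with a ratio under 0.25 to -0.84 over 236 above 1. From 0.25 to 0.5 the median was -0.12 over 133 peaks. Beside peaks of that strength and a like ratio, FOXA1 and TFAP2C lay below the median of -0.64. GRHL2 lay above its median (-0.34 against -0.46) and ELF3 was near its own (-0.16 against -0.12). SPDEF, at 0.23, is 1 of the 11 peaks under 0.25 and lay at their median, and 72.7% of them were called higher.

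**Figure D4:**
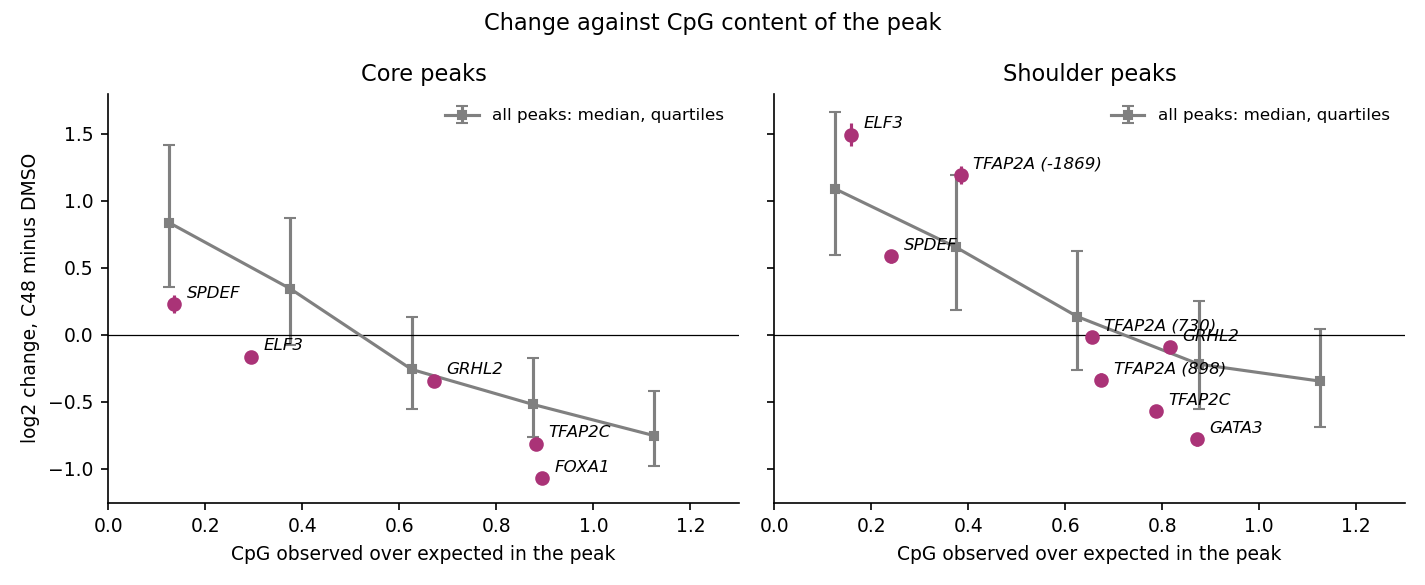
Log2 change (vertical) against CpG observed over expected of the peak (horizontal) for core (left) and shoulder peaks (right), with peaks of the 7 genes as dots with SE and all tested peaks as grey medians with quartiles in bins of 0.25, the last holding every ratio above 1. Members with a low ratio, such as the ELF3 shoulder at 0.158, lie above those with a high ratio, such as the FOXA1 core at 0.895.

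How the libraries are set level decides several signs. It cannot change the order of the genes, as a scaling shifts all of them by nearly the same amount. Relative to TMM, the values per 10 M tags raise a log2 change by about 0.33, column totals by 0.38 and ribosomal protein promoters by 0.79, while DESeq2 size factors shift it by -0.068. The core fall of FOXA1 was called under each of the 5 (from -1.13 with DESeq2 size factors to -0.28 with ribosomal protein promoters), as was the core rise of SPDEF (0.16 to 1.02). The core of TFAP2C was lower under 4 and not called with ribosomal protein promoters (-0.021, adjusted p = 0.596). The core changes of GRHL2 and ELF3 were positive with column totals, at 0.040 and 0.22, and with ribosomal protein promoters, at 0.45 and 0.63. Which scaling is nearest to the amount of mark per cell was not tested, as spike-in counts were not used here. Whether the core fall of FOXA1 would remain with spike-in scaling was not tested either.

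**Figure D5:**
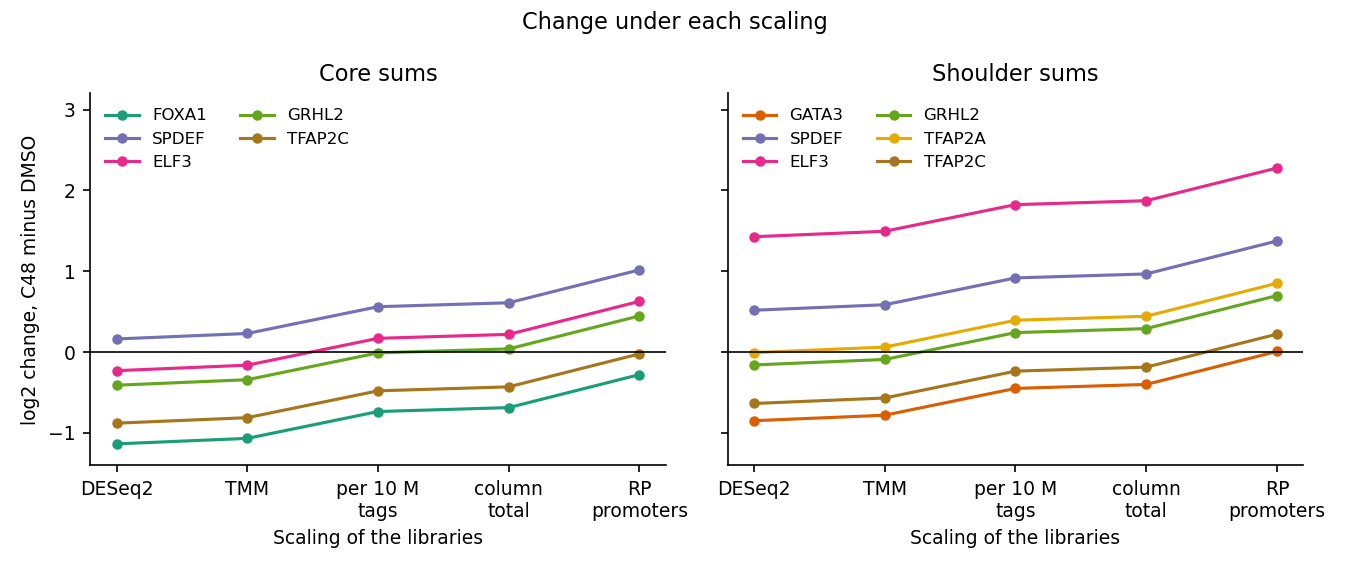
Log2 change of the core sums (left) and shoulder sums (right) of each gene under 5 ways of scaling the libraries (RP, ribosomal protein). The lines run side by side because a scaling shifts all genes by nearly the same amount, so their constant order is no result. The zero line crosses different genes, and the FOXA1 core stays below 0 and the SPDEF core, SPDEF shoulder and ELF3 shoulder stay above 0 throughout.

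Other regulators of the luminal programme mostly fell in the core. Of 26 listed genes 23 could be tested, of which 21 were lower, 1 higher and 1 not called, with a median log2 change of -0.77 against -0.41 over all genes, of which 67.1% were lower and 16.7% higher. Strong promoters fell more in general, with a median of -0.63 for core sums of 500 to 1000. Of core peaks of 200 to 2000 tags, 82.5% with a CpG ratio of 0.5 to 0.75 and 92.3% with 0.75 to 1 were lower. The list was not set against genes of like strength. NRIP1, a corepressor of the estrogen receptor, held 1123 and 1123 tags with DMSO and 545 and 564 with C48, a log2 change of -1.02 (adjusted p = 6.01e-131). TLE1, a Groucho corepressor, changed by -1.25 and TRPS1, a GATA-type repressor, by -0.69. In the shoulder 13 of 21 were lower, 5 higher and 3 not called, with a median of -0.31, against 28.5% lower and 48.5% higher over all genes. ESR1, the estrogen receptor gene, named here after its values were seen, fell in the core from 1059 and 1090 tags to 682 and 720 (log2 change -0.62, adjusted p = 1.88e-52) and rose in the shoulder from 8.48 and 11.7 to 112 and 118 (log2 change 3.40, adjusted p = 2.16e-29).

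Of 17 listed paralogues of the 7 factors 9 had a core sum that could be tested, of which 6 were lower and 3 higher, with a median of -0.16, against 67.1% and 16.7% of all genes. In the shoulder 6 of 12 were higher, 5 lower and 1 not called, against 48.5% higher and 28.5% lower of all genes. The shares of lower core sums and of higher shoulder sums were thus near those over the genome. The 3 of 9 higher core sums and the 5 of 12 lower shoulder sums were larger shares than over the genome, on few genes. ELF5 and EHF, the epithelial ETS genes related to ELF3, were both higher in the core, ELF5 from 95.4 and 89.1 tags to 268 and 286 (log2 change 1.58, adjusted p = 1.36e-88) and EHF from 59.9 and 62.9 to 166 and 181 (log2 change 1.48, adjusted p = 4.79e-54). GRHL1, the relative of GRHL2, fell from 539 and 550 to 280 and 297 (log2 change -0.92, adjusted p = 6.71e-66). Among the luminal markers, also not set against genes of like strength, 6 of 7 core sums were lower, against the 67.1% over all genes, and 1, MUC1, was not called. Their summed core level went from 3281 and 3273 to 1939 and 1992. That of the 8 basal markers went from 1320 and 1336 to 960 and 978, most of it from ZEB1. Of their 3 tested core sums ZEB1 was lower (log2 change -0.77) while VIM (0.66) and SNAI2 (0.37) were higher, and both tested shoulder sums, of TP63 (1.95) and SNAI2 (0.99), were higher. The stromal and endothelial core sum, which came from COL1A2, went from 40.7 and 41.6 to 80.7 and 91.4. In the shoulder, COL1A1 of that list fell from 936 and 999 to 798 and 837 (log2 change -0.24, adjusted p = 3.00e-07). The weak COL1A2 shoulder rose from 6.84 and 8.01 to 15.5 and 11.8.

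The genes most like each member were sought by Euclidean distance over 8 values, the log2 core and shoulder sums in the 4 libraries, among 5295 genes. SPDEF was nearest to EDN1 at a distance of 0.64 and CHRM4 at 0.67, whose core sums changed by 0.23 and 0.47 and whose shoulder sums changed by 0.71 and 0.68. ELF3 was nearest to SLC25A10 at 0.43, which changed by -0.017 in the core and 1.17 in the shoulder, and then to ABCA5 at 0.82. GRHL2 was nearest to IMPAD1 at 0.65 and ESRP1 at 0.67, the latter a splicing factor of epithelial cells, and their core sums changed by -0.82 and -0.73. TFAP2C was nearest to SLC9A3R1 at 1.00 and NCOA2 at 1.32.

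Promoter windows of 300 bases, from 250 before to 50 after a start in RefSeq (GRCh38.p14), were at hand for FOXA1, SPDEF, ELF3, TFAP2A and GATA3. CpG observed over expected was 0.966 at FOXA1, 0.397 at SPDEF and 0.269 at ELF3, with a median of 0.579 over 35116 promoters. On either strand, the GATA motif AGATAA and the forkhead motif TGTTTAC, which 10.3% and 3.42% of all promoters hold, were in 0 of the 11 windows, nor was the grainyhead motif AACNNGTT of 3.52%. The AP-2 motif GCCNNNGGC, found in 23.2%, was in 3 of the 6 GATA3 windows, and the ETS motif CCGGAAG, found in 10.3%, in 1 of them. The TATA box TATAAA, found in 11.5%, was in the ELF3 window, in 1 of 6 at GATA3 and in 1 of 2 at TFAP2A.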

How the data were processed

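H3K4me3 CUT&Tag was measured in 4 HCC1428 libraries, 2 per group, grouped by sample title. The treated columns carry the tag GNE and were matched through the sample descriptions. Reads were aligned by the authors to hg38 with Bowtie2 2.3.4.1 (submitters' processing notes); they also called peaks per library with HOMER (version not given in the sources used here) and merged them over libraries of several cell lines. The deposited signal is HOMER tags per peak scaled to 10 M aligned tags, without spike-in scaling. Its values are whole multiples of what 1 tag is worth (100% within 0.1 tags), which gives the depths of 58.4 to 88.4 M tags. The deposited repeat table was not used.

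Libraries were scaled by TMM (edgeR 4.0.16) over merged peaks with a mean of at least 5. Peaks and sums per gene with a scaled mean of at least 5 went into limma-trend of limma 3.58.1 in R 4.3.3, fitted on log2(value + 1), which understates changes of low values, with Benjamini-Hochberg adjustment over all features and calls at 0.05. Gene sums take every merged peak that the table names for the gene, whereas the peak fit was set to those called in at least 1 library. Member peaks that no library had called were tested among all merged peaks. Named were the 7 members with every core and shoulder peak and up to 2 outer peaks each way by smallest p, the 3 genes per list with the smallest core p, and the 2 nearest genes per member. ESR1 and further outer peaks were added after their values were seen. Replicate numbers did not pair the libraries (correlation of deviations -0.027). Alternatives were scalings, pseudocounts, filters, peak classes, edgeR and DESeq2 1.42.0 on recovered read pairs (tags divided by 2), a replicate block and leaving out each library. The fits were tested on simulated data. Positions and annotations are those of the deposited table, and gene bodies are from GENCODE. The members and lists were chosen with earlier results of these data known.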

Additional observations from a re-analysis of the deposited data

How the results depend on the processing

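Of the 55 single values under 19 alternatives, 763 results kept direction and side of the threshold, 27 lost their call, 25 gained one and 47 changed sign, 6 of these outside the scalings. No call changed with the no-filter setting, either pseudocount (0.5 or 5), the edgeR test or the replicate block, whose fit gave 1 core sum higher and 4 lower as the main fit did. Leaving out 1 library, the number of members or peaks called ranged, higher and lower, from 1 to 1 and 4 to 4 (core), 2 to 3 and 2 to 3 (shoulder), 4 to 5 and 0 to 0 (outer), 1 to 3 and 4 to 4 (20000 bases), 4 to 4 and 0 to 0 (ratio) and 7 to 7 and 6 to 9 (peaks). A lone library is then assumed to vary like the other group. The 20000-base count fell to 1 higher without DMSO replicate 1.

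Per 10 M tags and with column totals, 2 core sums were higher and 2 lower, 4 shoulder sums higher, and 11 peaks higher and 3 lower. With ribosomal protein promoters 3 core sums were higher and 1 lower, 5 shoulder sums higher and 0 lower, 6 sums over 20000 bases higher and 0 lower, and 15 peaks higher and 1 lower. With DESeq2 size factors 1 outer sum was lower and 1 sum over 20000 bases higher. With the annotation promoter-TSS as core 0 core sums were higher and 2 ratios higher, and with the shoulder to 5000 bases 1 outer sum was lower. Over all merged peaks 12 peaks were higher. With only called peaks in the sums, chosen after seeing the data, 1 shoulder sum and 1 sum over 20000 bases were higher and 1 outer sum lower.

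Signs changed as follows, and beyond the shift of each scaling the cause was not tested. Per 10 M tags the log2 changes became 0.17 (ELF3 core sum and peak), 0.24 (GRHL2 shoulder sum and peak), 0.25 (FOXA1 outer), 0.17 (GRHL2 over 20000 bases), 0.052 (GRHL2 at -18151) and 0.32 (TFAP2A at 730). With column totals they became 0.22 (ELF3 core sum and peak), 0.040 (GRHL2 core sum and peak), 0.29 (GRHL2 shoulder sum and peak), 0.30 (FOXA1 outer), 0.22 (GRHL2 over 20000 bases), 0.099 (GRHL2 at -18151), 0.37 (TFAP2A at 730) and 0.048 (TFAP2A at 898). With ribosomal protein promoters they became 0.63 (ELF3 core sum and peak), 0.45 (GRHL2 core sum and peak), 0.0087 (GATA3 shoulder sum and peak), 0.70 (GRHL2 shoulder sum and peak), 0.22 (TFAP2C shoulder sum and peak), 0.71 (FOXA1 outer), 0.20 (FOXA1 over 20000 bases), 0.0088 (GATA3), 0.63 (GRHL2) and 0.28 (TFAP2C) over the same span, 0.38 (FOXA1 at 11493), 0.071 (SPDEF at 11154), 0.49 (GRHL2 at -18151), 0.77 (TFAP2A at 730) and 0.46 (TFAP2A at 898). With DESeq2 size factors the TFAP2A shoulder sum became -0.0054 and FOXA1 at 3696 became -0.0078. With only called peaks the TFAP2A shoulder sum became -0.015 and ELF3 over 20000 bases -0.057. Without C48 replicate 1 the FOXA1 outer sum became 0.011 (range -0.11 to 0.011 over the 4 libraries left out) and TFAP2A at 730 became 0.061 (range -0.066 to 0.061). Without DMSO replicate 1 SPDEF at 9578 became -0.033 (range -0.033 to 0.50), and without DMSO replicate 2 TFAP2A at 730 became 0.011. None of these values taken with 1 library left out was called in either fit.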
